A study of Mus musculus with 8 samples.

Results

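A set of 10 immediate early genes outside the AP-1 family, of the 23284 genes in the count table, was followed in choroid plexus of mouse embryos at E18.5. They were Egr1, Egr2, Egr3, Nr4a1, Nr4a2, Klf2, Klf4, Klf6, Ier2 and Dusp1, taken by name. The RNA-seq libraries came from sorted epithelial cells or from whole choroid plexus, each from the hindbrain or the telencephalon, with 2 biological replicates in each of the 4 groups (n = 2 for every group value below). The sorted cells were purified by fluorescence-activated sorting for a red fluorescent reporter driven by Ttr, the transthyretin gene of the choroid epithelium, and their strain is labelled ICR (CD1). Whole tissue is labelled CD1 and no reporter is named for it. No drug treatment or mutation is named for any group. Both regions were taken from the same brains or pools of brains. The main regional tests compared group means and did not pair by brain, which entered as a block only in an alternative fit. Sorted cells and whole tissue came from different animals. Sorting, the time it took and the animals used therefore cannot be told apart in any difference between sorted cells and whole tissue. The sources used here give neither the dissociation of the cells nor whether embryos were pooled.

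Immediate early genes are transcribed within minutes of a stimulus from factors already present in the cell, without new protein synthesis. Growth factors, calcium and cell stress act on them through MAP kinases and through the factors SRF and CREB, and many of their products shut the response down again. Egr1, Egr2 and Egr3 encode zinc finger transcription factors, Nr4a1 and Nr4a2 encode orphan nuclear receptors, and Klf2, Klf4 and Klf6 encode Krüppel-like zinc finger factors. Ier2 encodes a small nuclear protein, and Dusp1 encodes a phosphatase that inactivates MAP kinases.

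Promoter windows of 300 bases, from 250 before to 50 after the annotated start, were found in RefSeq (GRCm38.p6) for 7 of the 10 genes: Egr2, Nr4a1, Nr4a2, Klf2, Klf4, Klf6 and Dusp1. The counts themselves were made on mm9 and carry no coordinates. The 4 windows below, chosen after their matches were seen, are those of genes called higher in sorted cells of both regions that hold at least 2 matches to TGACG. Klf4 was also called higher in both, and its window, with 1 match to TGACG and 2 to GCGNGGGCG, is not shown. Capitals mark matches on either strand to the CArG box (bound by SRF), TGACGTCA (the cAMP response element bound by CREB), TGACG (its shorter form, contained in it on both strands), GCGNGGGCG (bound by EGR proteins), TGANTCA (bound by AP-1) or TATAAA. The Egr2 window is chr10:67537619-67537918, plus strand, 1 of 5 annotated for the gene. The Nr4a1 window is chr15:101266596-101266895, plus strand. The Nr4a2 window is chr2:57123954-57124253 and the Dusp1 window chr17:26508423-26508722, both on the minus strand and printed 5′ to 3′ in the sense of the gene.
Egr2 promoter: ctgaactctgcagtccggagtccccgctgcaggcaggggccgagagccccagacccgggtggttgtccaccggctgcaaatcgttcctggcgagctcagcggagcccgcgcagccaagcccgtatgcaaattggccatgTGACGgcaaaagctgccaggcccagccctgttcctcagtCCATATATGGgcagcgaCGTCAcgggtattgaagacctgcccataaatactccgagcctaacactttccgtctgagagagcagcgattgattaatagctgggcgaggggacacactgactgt
Nr4a1 promoter: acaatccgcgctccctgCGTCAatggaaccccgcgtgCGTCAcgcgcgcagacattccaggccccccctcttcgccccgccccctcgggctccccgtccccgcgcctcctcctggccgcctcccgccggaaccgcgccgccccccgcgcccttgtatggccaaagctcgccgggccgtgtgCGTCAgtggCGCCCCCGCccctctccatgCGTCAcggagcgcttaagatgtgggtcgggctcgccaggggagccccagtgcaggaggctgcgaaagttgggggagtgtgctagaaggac
Nr4a2 promoter: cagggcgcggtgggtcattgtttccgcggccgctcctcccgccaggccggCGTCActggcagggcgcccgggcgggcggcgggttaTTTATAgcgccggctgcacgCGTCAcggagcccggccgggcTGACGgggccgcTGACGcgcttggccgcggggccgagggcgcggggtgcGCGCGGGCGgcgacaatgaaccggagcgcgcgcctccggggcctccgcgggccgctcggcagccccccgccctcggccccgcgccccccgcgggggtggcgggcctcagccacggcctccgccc
Dusp1 promoter: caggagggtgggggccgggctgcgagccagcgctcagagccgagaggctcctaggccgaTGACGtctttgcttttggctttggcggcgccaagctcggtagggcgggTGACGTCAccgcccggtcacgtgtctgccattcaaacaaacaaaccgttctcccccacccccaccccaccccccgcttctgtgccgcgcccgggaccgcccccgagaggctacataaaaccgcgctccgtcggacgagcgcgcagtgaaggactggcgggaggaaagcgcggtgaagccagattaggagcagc

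The Egr2 window holds a CArG box that begins 72 bases before the start, with TGACG matches at 111 and 55 bases before it. The CArG box occurs in 1.63% of the 32851 promoter windows in the same table. Nr4a1 and Nr4a2 each hold 4 matches to TGACG and 1 to GCGNGGGCG, which begins 60 and 74 bases before their starts. Dusp1 holds the full TGACGTCA, 143 bases before its start, an element found in 1.79% of windows. TGACG was present in 6 of the 7 genes (all but Klf6) and in 20.8% of all windows. A gene is counted if any of its windows matches, and Egr2 has 5 windows, whereas the percentages are per window. GCGNGGGCG was present in 4 of the 7 (Nr4a1, Nr4a2, Klf2 and Klf4) and in 5.55% of windows. TGANTCA was in no window of these genes and in 7.81% of all windows, and TATAAA was in that of Nr4a2 and in 13.6% of all windows. A match is a string of letters and not evidence of binding, and its absence says nothing about sequence outside the window.

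Total counts ran from 8849053 to 31613434 per library. Levels are given as CPM, the count over the TMM-scaled library size on the usual CPM scale. Differences are log2 fold changes from the fit, followed by ± SE. A gene is said to be called when its Benjamini-Hochberg adjusted p from edgeR's quasi-likelihood test, adjusted over the 15698 genes tested, was below 0.05. All 10 genes passed the filter on low counts. Transthyretin reached 15.9% to 21.1% of the TMM-scaled library size in hindbrain sorted and 13.9% to 14.1% in hindbrain whole libraries. It reached 25.7% to 28.2% in telencephalic sorted and 17.2% to 18.7% in telencephalic whole libraries. The choroid plexus label thus held in the whole-tissue libraries. For sorted cells, selected by a reporter driven by Ttr, a high value is no check of the label. These percentages are CPM values rescaled and not shares of raw counts. On the same scale the ribosomal precursor Rn45s reached 6.3% to 12.1% in hindbrain sorted and 3.6% to 3.71% in hindbrain whole libraries. It reached 13.4% to 16.7% in telencephalic sorted and 4.08% to 4.13% in telencephalic whole libraries. In bulk RNA, a change in the share of cells that express a gene and a change in RNA per cell cannot be told apart.

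In the hindbrain, 8 of the 10 genes were called higher in sorted cells than in whole tissue, and Egr3 and Klf2 were not called. Among all genes tested 22.1% were called and 10.2% were called higher. The median log2 fold change of the 10 genes was 2.84, beside 0.00893 for all genes. In the telencephalon 7 of the 10 were called higher, with a median of 2.01 beside 0.0146. There 22.4% of all genes were called and 9.88% called higher, and Egr3, Klf2 and Klf6 were not called. The hindbrain groups did not overlap for any of the 10 genes, all higher in sorted cells, as for 29.8% of all genes. The telencephalic groups did not overlap for 9 genes, of which 8 were higher (33.7% of all genes) and 1, Klf6, was lower (32.6%). That many of them were higher in sorted cells was known when these genes were grouped.

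**Figure D1:**
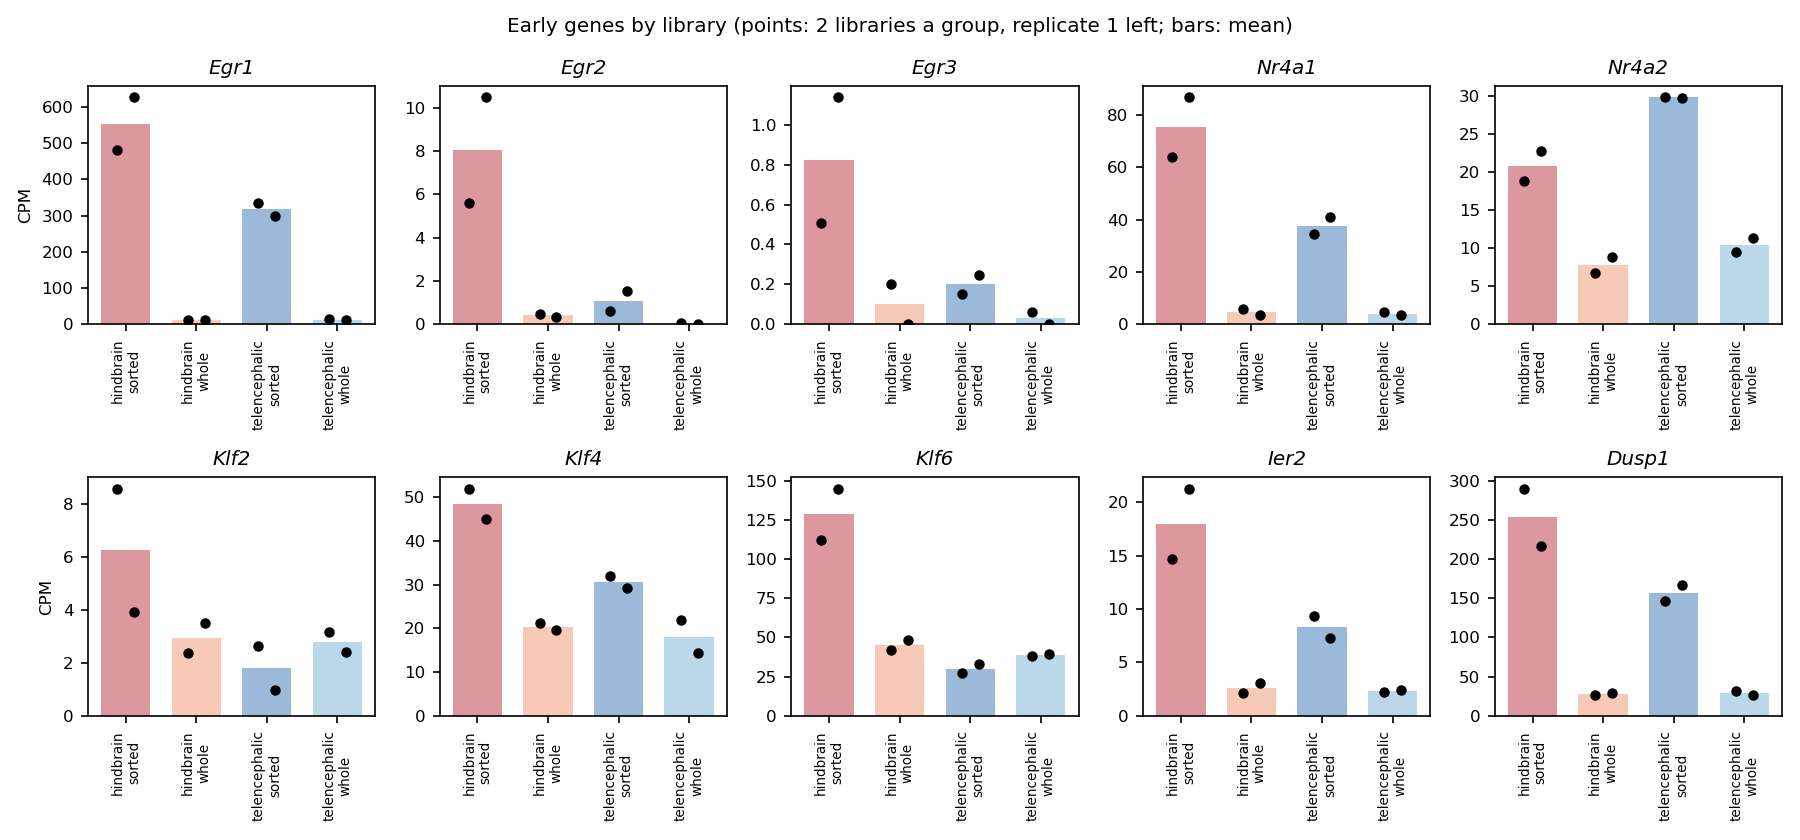
CPM of each early gene (vertical axes, linear and starting at 0, scaled per gene) in hindbrain sorted, hindbrain whole, telencephalic sorted and telencephalic whole libraries; points are the 2 libraries of a group and bars their mean. Egr1 and Dusp1 stand far above whole tissue in sorted cells of both regions, and Klf6 does so in the hindbrain, where it reached 112 and 145 CPM, and not in the telencephalon, where it had 27.0 and 32.8 CPM.

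Egr1, which encodes the prototype EGR factor, had 480 and 626 CPM in hindbrain sorted cells, against 12.6 and 11.9 CPM in hindbrain whole tissue. It had 336 and 299 CPM in telencephalic sorted cells, against 14.98 and 10.8 CPM in telencephalic whole tissue. All 4 sorted libraries were thus high and all 4 whole-tissue libraries low. The log2 fold change was 5.50 ± 0.19 in the hindbrain (45.3-fold, edgeR adjusted p = 4.04e-09) and 4.60 ± 0.18 in the telencephalon (24.2-fold, edgeR adjusted p = 1.05e-08). It ranked 28 and 53 among the 15698 genes, the highest of the 10 genes in each region.

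Egr2, which encodes a regulator of Schwann cell myelination and hindbrain segment identity, was scarce in whole tissue. It had 154 and 286 counts (5.602 and 10.49 CPM) in hindbrain sorted cells, against 12 and 7 counts (0.48 and 0.33 CPM) in hindbrain whole tissue, a log2 fold change of 4.27 ± 0.54 (edgeR adjusted p = 0.000183). It had 16 and 25 counts (0.61 and 1.55 CPM) in telencephalic sorted cells, against 1 and 0 counts in telencephalic whole tissue. Pooled over libraries, that ratio was 24.9-fold with a 95% counting interval of 4.23 to 1010, and its edgeR adjusted p was 0.00753. Leaving out telencephalic whole replicate 1 ended the telencephalic call (adjusted p = 0.0593), as did leaving out replicate 2 (0.0545). Egr3, which encodes an EGR factor of muscle spindles and lymphocytes, was near the detection floor. It had 14 and 31 counts in hindbrain sorted cells and 5 and 0 in hindbrain whole tissue, a 7.56-fold ratio with a counting interval of 3.01 to 24.4 (edgeR adjusted p = 0.0558). The hindbrain value was called without the filter on low counts (adjusted p = 0.0495), without hindbrain whole replicate 1 (0.0456) and without hindbrain sorted replicate 1 (0.0231). It had 4 and 4 counts in telencephalic sorted cells and 1 and 0 in telencephalic whole tissue, a 4.87-fold ratio with a counting interval of 0.652 to 216 (edgeR adjusted p = 0.368), so a difference was not detectable there at this depth. Counting intervals here and below treat reads as independent and leave out the spread between libraries. Pre-amplified reads without molecular identifiers are not independent molecules, so these intervals are likely too narrow even for counting error.

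Nr4a1, known as Nur77, had 63.9 and 86.8 CPM in hindbrain sorted cells, against 5.93 and 3.68 CPM in hindbrain whole tissue (3.96 ± 0.24, edgeR adjusted p = 3.64e-07). It had 34.6 and 40.9 CPM in telencephalic sorted cells, against 4.77 and 3.35 CPM in telencephalic whole tissue (3.17 ± 0.26, edgeR adjusted p = 3.65e-06). The sorted libraries of both regions were all above the whole-tissue libraries. Nr4a2, known as Nurr1 and required for midbrain dopamine neurons, had 18.9 and 22.8 CPM in hindbrain sorted cells, against 6.77 and 8.83 CPM in hindbrain whole tissue. In the telencephalon it had 29.9 and 29.8 CPM in sorted cells, against 9.54 and 11.3 CPM in whole tissue. Its log2 fold changes were 1.42 ± 0.18 and 1.53 ± 0.19 in hindbrain and telencephalon (edgeR adjusted p = 0.00022 and 0.000124), and unlike the other 9 genes it was lower in the hindbrain than in the telencephalon in sorted cells.

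The 3 Krüppel-like genes did not move as 1 group. Klf6, an early gene of injury and growth factor responses, had 112 and 145 CPM in hindbrain sorted cells, against 41.9 and 48.7 CPM in hindbrain whole tissue, and was called higher (1.51 ± 0.15, edgeR adjusted p = 3.02e-05). In telencephalic sorted cells it had 27.0 and 32.8 CPM, against 38.1 and 39.6 CPM in telencephalic whole tissue, with a log2 fold change of -0.38 ± 0.16 that was not called (edgeR adjusted p = 0.102). That value became a call, downward, under 4 alternatives, with edgeR adjusted p = 0.0356 for the 4 telencephalic libraries alone, 0.0459 with replicate number as a block, 0.0464 without hindbrain sorted replicate 1 and 0.00514 on library totals. Library totals moved the telencephalic median of all genes to -0.30, and the Klf6 value to -0.70.

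Klf4, a factor of epithelial differentiation and pluripotency that is also abundant in endothelium, had 52.0 and 45.1 CPM in hindbrain sorted cells, against 21.3 and 19.5 CPM in hindbrain whole tissue (1.25 ± 0.18, edgeR adjusted p = 0.000499). In telencephalic sorted cells it had 32.1 and 29.3 CPM, against 22.0 and 14.3 CPM in telencephalic whole tissue (0.74 ± 0.19, edgeR adjusted p = 0.014). The telencephalic call was lost without telencephalic whole replicate 2 (0.48, adjusted p = 0.139), without telencephalic sorted replicate 1 (0.67, adjusted p = 0.0955) and on library totals (0.43, adjusted p = 0.119). Klf2, known as a flow-responsive factor of endothelium, had 8.59 and 3.93 CPM in hindbrain sorted cells, against 2.38 and 3.49 CPM in hindbrain whole tissue (1.09 ± 0.45, edgeR adjusted p = 0.103). It had 2.65 and 0.99 CPM in telencephalic sorted cells, against 3.18 and 2.41 CPM in telencephalic whole tissue (-0.59 ± 0.50, edgeR adjusted p = 0.436), and these groups overlapped. The hindbrain value was called without the filter on low counts (adjusted p = 0.0281) and without hindbrain sorted replicate 2 (1.55, adjusted p = 0.0193). Klf2 had the widest relative spread between hindbrain sorted replicates of the 3 Klf genes.

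Ier2 had 14.7 and 21.3 CPM in hindbrain sorted cells, against 2.14 and 3.07 CPM in hindbrain whole tissue (2.79 ± 0.27, edgeR adjusted p = 2.28e-05). It had 9.38 and 7.32 CPM in telencephalic sorted cells, against 2.26 and 2.41 CPM in telencephalic whole tissue (1.85 ± 0.30, edgeR adjusted p = 0.000831). Dusp1, the feedback phosphatase, had 290 and 217 CPM in hindbrain sorted cells, against 26.6 and 28.7 CPM in hindbrain whole tissue (3.20 ± 0.16, edgeR adjusted p = 8.38e-08). It had 146 and 167 CPM in telencephalic sorted cells, against 31.2 and 26.2 CPM in telencephalic whole tissue (2.44 ± 0.16, edgeR adjusted p = 5.71e-07). For both genes all 4 sorted libraries were above all 4 whole-tissue libraries.

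**Figure D2:**
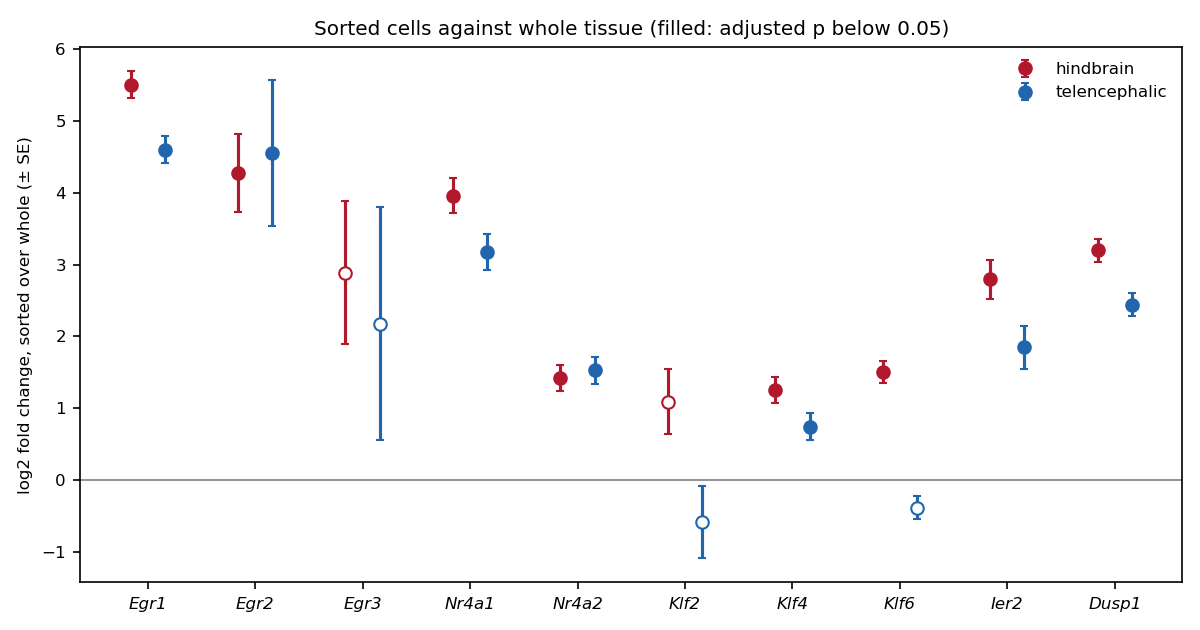
Log2 fold change of sorted cells over whole tissue (vertical axis) for each early gene in hindbrain (red, left of each pair) and telencephalon (blue, right); bars are the SE of the fit and filled points have an adjusted p below 0.05. Egr1 is highest in both regions, at 5.50 and 4.60, and Klf2 and Klf6 lie above 0 in the hindbrain and below 0 in the telencephalon.

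**Figure D3:**
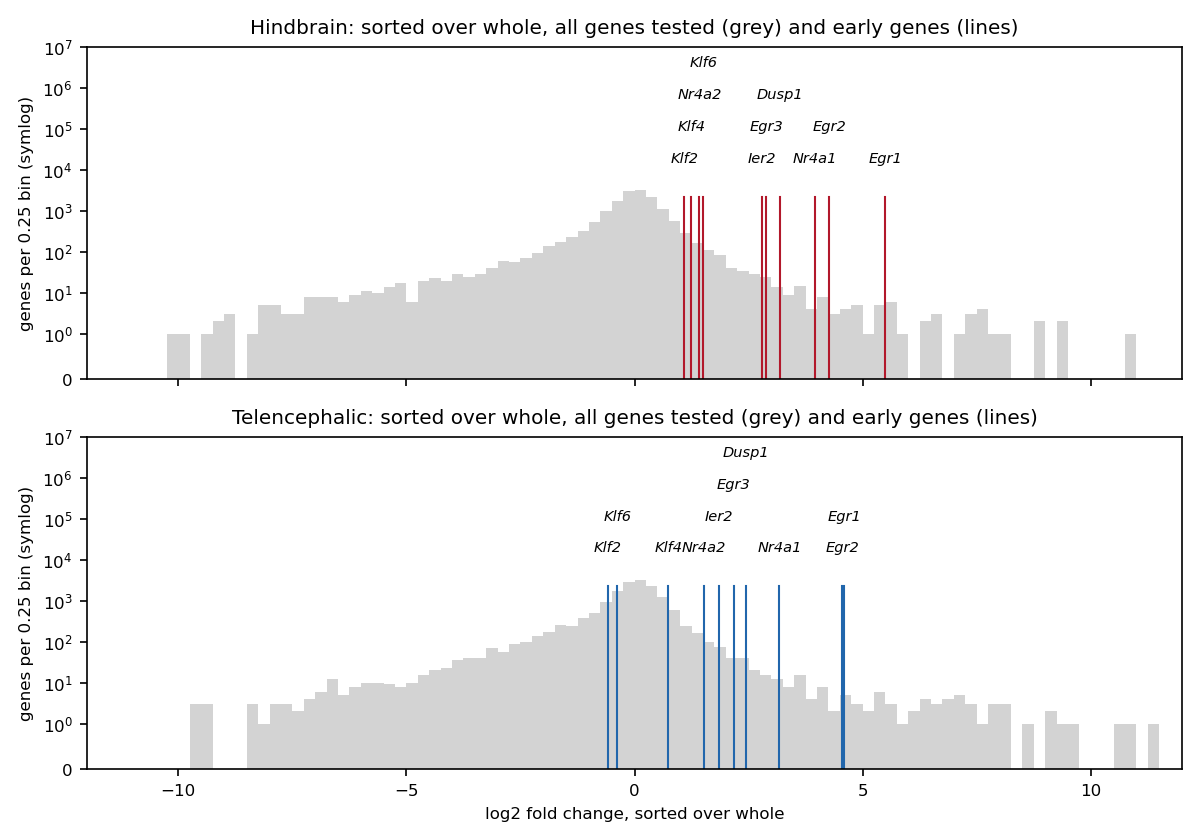
Histogram of log2 fold changes of sorted cells over whole tissue for all 15698 genes tested (grey, bins of 0.25, symlog vertical axis that is linear below 1 gene), hindbrain above and telencephalon below, with the early genes as labelled lines. All 10 lines lie at or above 1.09 in the hindbrain, and Klf2 and Klf6 lie left of 0 in the telencephalon.

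Levels of different genes were compared per kilobase of annotated exon (GENCODE M21 lengths, the union of a gene's exons). In hindbrain sorted cells Egr1 stood highest at 123 CPM per kilobase and Dusp1 next at 107, followed by Klf6 at 30.4 and Nr4a1 at 28.1. In hindbrain whole tissue the order was another, with Dusp1 at 11.7, Klf6 at 10.7, Klf4 at 6.74 and Egr1 at 2.72 CPM per kilobase. In telencephalic sorted cells Egr1 had 70.8 and Dusp1 66.0 CPM per kilobase, and Klf4, at 10.1, stood above Klf6, at 7.07. In telencephalic whole tissue Dusp1 led with 12.1, then Klf6 with 9.2 and Klf4 with 5.99. Egr3 was lowest in all 4 groups, at 0.201 in hindbrain sorted cells and 0.00745 CPM per kilobase in telencephalic whole tissue. No other annotated gene shared exon bases with any of the 10 on either strand, and the protocol, which marks no strand, could not have separated such reads.

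In sorted cells 8 of the 10 genes were called higher in the hindbrain than in the telencephalon, with a median log2 fold change of 1.05 beside -0.00145 for all genes. Of all genes 15.2% were called, 9.06% higher and 6.12% lower. The sorted groups did not overlap for any of the 10, with 9 higher (26.1% of all genes) and Nr4a2 lower (25.8%). Klf6 changed by 2.11 ± 0.16 (edgeR adjusted p = 3.93e-06), Egr2 by 2.96 ± 0.49 (0.00146), Klf2 by 1.73 ± 0.47 (0.0261), Ier2 by 1.10 ± 0.25 (0.00997) and Nr4a1 by 1.00 ± 0.21 (0.00593). Egr1 changed by 0.80 ± 0.15 (edgeR adjusted p = 0.00328), Dusp1 by 0.69 ± 0.15 (0.00699) and Klf4 by 0.66 ± 0.18 (0.0258). Egr3, with 45 counts over both hindbrain and 8 over both telencephalic sorted libraries, had a 4.37-fold ratio (counting interval 2.04 to 10.7) and was not called (edgeR adjusted p = 0.169). Nr4a2 had -0.52 ± 0.18 (edgeR adjusted p = 0.0663). It was called lower with brain as a block, at -0.53 (adjusted p = 0.0294), and without hindbrain sorted replicate 2, at -0.66 (0.0331).

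The regional count in sorted cells depended on single libraries. It was 5 without telencephalic sorted replicate 1, where Dusp1 (adjusted p = 0.096), Klf4 (0.107) and Nr4a1 (0.0866) were no longer called. It was also 5 without telencephalic sorted replicate 2, where Ier2 (adjusted p = 0.082), Klf2 (0.151) and Klf4 (0.142) were lost. Without hindbrain sorted replicate 1, Klf2 (adjusted p = 0.176) and Klf4 (0.0982) were lost. Egr1, Egr2 and Klf6 kept their calls under each of these.

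In whole tissue edgeR called none of the 10 genes between hindbrain and telencephalon, and DESeq2 called 0 as well. At an unadjusted p below 0.05 there was 1, Egr2, with 19 counts over both hindbrain libraries and 1 over both telencephalic libraries (10.7-fold, counting interval 1.7 to 444, edgeR adjusted p = 0.157). Of all genes 5.79% were called, 3.34% higher and 2.45% lower. The groups did not overlap for 3 of the 10 genes, of which 2 were higher (26.8% of all genes) and 1 lower (24.8%). Among genes with more counts the log2 fold changes ran from -0.41 ± 0.20 for Nr4a2 to 0.22 ± 0.16 for Klf6 (edgeR adjusted p = 0.323 and 0.563), and Egr1 had -0.10 ± 0.18 (0.866).

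Because the sorted groups did not overlap, the side of 1 on which their within-brain ratios fall was already fixed and adds no support. Within brains, the ratio of hindbrain to telencephalic CPM in sorted cells was above 1 in both brains for 9 of the 10 genes. It was 4.15 and 4.43 for Klf6, 9.26 and 6.77 for Egr2, 3.24 and 3.96 for Klf2, and 1.43 and 2.09 for Egr1. For Nr4a2 it was 0.633 and 0.763 in sorted cells, and 0.71 and 0.78 in whole tissue, so this gene was lower in the hindbrain library of all 4 brains or pools. In whole tissue Egr1 had ratios of 0.84 and 1.10, Dusp1 0.853 and 1.10, and Klf6 1.10 and 1.23.

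**Figure D4:**
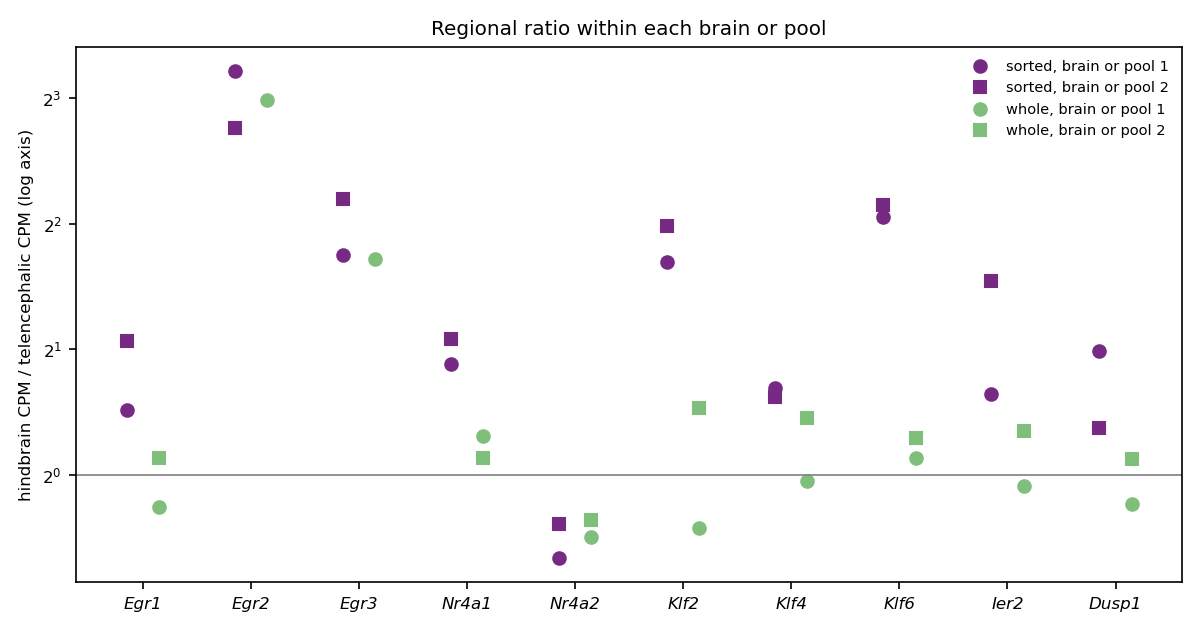
Ratio of hindbrain to telencephalic CPM within each brain or pool (vertical axis, log scale) for sorted cells (purple) and whole tissue (green); circles are replicate 1 and squares replicate 2, and the grey line marks 1. Egr2 and Egr3 have no whole-tissue square because the telencephalic count was 0. The sorted points of Klf6 lie at 4.15 and 4.43 and its whole-tissue points at 1.10 and 1.23, while all 4 points of Nr4a2 lie below 1.

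Whether the rise from whole tissue to sorted cells differed between regions was tested as the difference of the 2 rises. Klf6 was the 1 gene of the 10 called, at 1.89 ± 0.22 (edgeR adjusted p = 0.00179). Of all genes 1.34% were called, 1.1% with the higher value in the hindbrain. It stayed called under every alternative run, with values between 1.69 and 2.07 and adjusted p up to 0.0199. The median of the 10 genes was 0.77 beside 0.00382 for all genes. Egr1 had 0.90 ± 0.24 (edgeR adjusted p = 0.116) and Dusp1 0.75 ± 0.22 (0.168). Egr1 was called by DESeq2 (adjusted p = 0.0088), on library totals (0.0424), without the filter (0.0074) and without hindbrain sorted replicate 1 (0.0241), and Dusp1 by DESeq2 (0.0476), without the filter (0.0277) and without hindbrain sorted replicate 2 (0.0167). With brain as a block 337 genes instead of 211 were called over the whole table, and Klf6 remained the one called member.

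Markers of other cells moved with region in the sorted libraries. The 11 macrophage markers found summed to 195 to 242 CPM in hindbrain sorted and 237 to 242 CPM in hindbrain whole libraries, and to 39.7 to 63.6 CPM in telencephalic sorted and 170 to 192 CPM in telencephalic whole libraries. The 10 mural markers summed to 265 to 296 CPM in hindbrain sorted and 385 to 466 CPM in hindbrain whole libraries, and to 69.8 to 76.7 CPM in telencephalic sorted and 405 to 425 CPM in telencephalic whole libraries. In sorted cells all 11 macrophage and 8 of 10 mural markers were called higher in the hindbrain, as were 9 of 11 tested mesenchymal markers, with 1 lower. Of the 12 endothelial markers 5 were called higher and 1 lower there, with a median log2 fold change of 0.90. Cdh5, the endothelial cadherin gene, had 39.6 CPM in hindbrain sorted and 9.26 CPM in telencephalic sorted cells. Emcn, another endothelial surface gene, named after its values were seen, had 32.7 CPM in hindbrain sorted and 7.16 CPM in telencephalic sorted cells. The endothelial markers Egfl7 and Kdr, also named after their values were seen, went the other way. They had 1.72 and 78.4 CPM in hindbrain sorted, and 3.10 and 97.5 CPM in telencephalic sorted cells. For the difference of rises 3 endothelial, 5 mural, 4 macrophage and 1 mesenchymal marker were called, all with the higher value in the hindbrain. The mesenchymal sum was 1750 to 2190 CPM in hindbrain sorted and 1030 to 1100 CPM in telencephalic sorted libraries. It was also higher in hindbrain whole libraries, at 2140 to 2370 CPM, than in telencephalic whole libraries, at 1450 to 1700 CPM. In whole tissue 6 of 11 tested mesenchymal markers were called higher in the hindbrain, so this regional difference was not limited to sorted libraries. Rgs5, a pericyte gene, had 23.1 ± 8.2 CPM in hindbrain sorted and 2.42 ± 0.43 CPM in telencephalic sorted cells, and its difference of rises was 3.28 ± 0.34 (edgeR adjusted p = 0.00101). The mural marker Myh11 went the other way, with 0.494 CPM in hindbrain sorted and 0.885 CPM in telencephalic sorted cells. The complement gene C1qc of macrophages had a difference of rises of 2.29 ± 0.31 (edgeR adjusted p = 0.00324), beside 1.89 for Klf6. None of these markers was at 0 in either sorted group. The part these cells have in the regional differences of Klf6, Klf2, Klf4, Egr2 and the other genes was not tested.

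The 12 endothelial markers were lower in sorted cells in both regions, all of them called. They summed to 194 to 203 CPM in hindbrain sorted and 767 to 829 CPM in hindbrain whole libraries, and to 133 to 138 CPM in telencephalic sorted and 779 to 787 CPM in telencephalic whole libraries. Pecam1, an endothelial adhesion molecule, had 1.79 ± 0.22 CPM in hindbrain sorted and 61.4 ± 1.3 CPM in hindbrain whole libraries. For the other lists, 9 of 10 neuronal markers were called lower in hindbrain sorted cells and 6 of 10 in telencephalic sorted cells, as were 3 of 3 and 2 of 3 tested erythroid markers. Of 11 tested macrophage markers 2 were called lower in hindbrain and 9 in telencephalic sorted cells, of 10 mural markers 5 and 9, and of 11 tested mesenchymal markers 3 and 7, with 1, in the hindbrain, higher. Choroid epithelial markers were called higher for 4 of 12 in hindbrain and 6 of 12 in telencephalic sorted cells, among them the potassium channel gene Kcnj13 at 0.65 ± 0.15 and 0.84 ± 0.15.

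**Figure D5:**
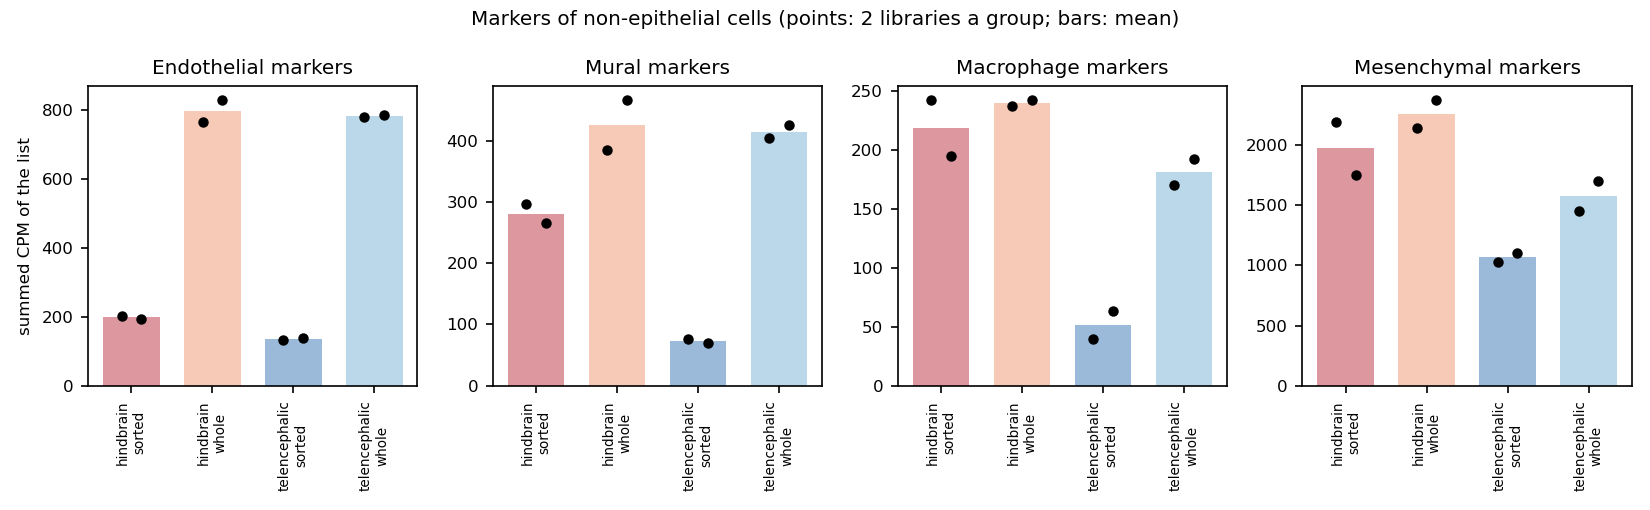
Summed CPM of endothelial, mural, macrophage and mesenchymal marker lists (vertical axes, linear from 0) in hindbrain sorted, hindbrain whole, telencephalic sorted and telencephalic whole libraries; points are the 2 libraries of a group and bars their mean. Macrophage sums are 195 to 242 CPM in hindbrain sorted and 39.7 to 63.6 CPM in telencephalic sorted libraries, while endothelial sums are low in both sorted groups.

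Relatives of the 10 genes moved unevenly. Of the other Egr, Nr4a and Nab genes 3 were tested. Nab1, which encodes a corepressor that binds EGR proteins, was higher in sorted cells at 2.28 ± 0.17 in the hindbrain and 1.88 ± 0.19 in the telencephalon (edgeR adjusted p = 2.93e-06 and 2.07e-05). Its close relative Nab2 had -0.18 ± 0.16 in the hindbrain and was called lower in the telencephalon at -0.51 ± 0.17 (edgeR adjusted p = 0.447 and 0.0462). Nr4a3, the third member of the nuclear receptor family, was not called in the hindbrain (0.52 ± 0.21, edgeR adjusted p = 0.0962) and was called higher in the telencephalon (0.95 ± 0.23, 0.0103).

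Of 13 other Klf genes tested, 1 was called higher and 3 lower in sorted cells of the hindbrain, and 2 higher and 2 lower in telencephalic sorted cells, with medians of -0.24 and -0.15. Klf7, a neuronal Krüppel-like factor, was lower at -1.84 ± 0.20 and -2.21 ± 0.21 in hindbrain and telencephalon, and Klf13 at -0.66 ± 0.14 and -0.62 ± 0.14. Klf15, a glucocorticoid-responsive gene, was higher at 0.61 ± 0.19 and 0.64 ± 0.20. Klf5, a factor of proliferating epithelia, was lower in the hindbrain at -1.29 ± 0.27 (edgeR adjusted p = 0.00481) and had -0.84 ± 0.30 in the telencephalon (0.0652).

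Among 9 other MAP kinase phosphatases, 3 were called higher in hindbrain sorted cells and 1 was called lower in telencephalic ones, with medians of 0.23 and 0.08. Dusp6, a cytoplasmic MAP kinase phosphatase gene, had 0.53 ± 0.21 in the hindbrain and was lower in the telencephalon at -0.97 ± 0.22 (edgeR adjusted p = 0.0869 and 0.00743), a difference of rises of 1.51 ± 0.30 (0.0291). Dusp2, a nuclear phosphatase, was higher in the hindbrain at 3.80 ± 0.74 (edgeR adjusted p = 0.00339), and Dusp5 and Dusp10 were called there as well, at 3.58 ± 1.14 and 0.94 ± 0.30 (both 0.0408). Of 3 Ier relatives tested, Ier3, a survival factor, was higher at 1.83 ± 0.21 in the hindbrain and 1.13 ± 0.22 in the telencephalon. Ier5 was higher in the hindbrain at 0.78 ± 0.15 (edgeR adjusted p = 0.00286) and had -0.41 ± 0.15 in the telencephalon (0.0716), with a difference of rises of 1.19 ± 0.21 (0.0137), as for Klf6.

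The AP-1 genes, partners in the same early response, had 6 of 7 tested members called higher in sorted cells of each region, with medians of 5.26 in the hindbrain and 4.13 in the telencephalon. Fos had 255 ± 25 CPM in hindbrain sorted and 1.27 ± 0.60 CPM in hindbrain whole libraries, a log2 fold change of 7.61 ± 0.23. Fosb reached 9.34 ± 0.31 and 8.08 ± 0.39 in hindbrain and telencephalon, Junb 5.26 ± 0.25 and 4.13 ± 0.27, and Jun 2.93 ± 0.13 and 3.08 ± 0.14. Of 25 other early response genes tested, 17 were called higher in hindbrain sorted cells, and 13 higher and 4 lower in telencephalic sorted cells, with medians of 1.18 and 0.72. The matricellular gene Cyr61 was higher at 4.71 ± 0.23 and 3.67 ± 0.23 in hindbrain and telencephalon. The NF-kB regulator Nfkbiz was higher at 3.64 ± 0.19 and 2.79 ± 0.19, the antiproliferative gene Btg2 at 2.36 ± 0.18 and 1.63 ± 0.18, and the kinase gene Sgk1 at 1.34 ± 0.11 and 1.45 ± 0.11.

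By list median, transcripts of the upstream factors moved less, and the activity of these factors was not measured. Of 12 SRF, ternary complex and CREB factors, 2 were called higher and 2 lower in sorted cells of each region, with medians of 0.09 in the hindbrain and -0.01 in the telencephalon. The SRF coactivator gene Mkl1 was higher at 0.45 ± 0.11 and 0.68 ± 0.12 in hindbrain and telencephalon, and Elk3, an ETS factor also expressed in endothelium, was lower at -1.34 ± 0.15 and -1.86 ± 0.16. Mkl2 was called lower in the hindbrain (-0.54 ± 0.14), with -0.43 ± 0.14 in the telencephalon, and Crtc2, a CREB coactivator gene, was called higher in the hindbrain (0.56 ± 0.17), with 0.48 ± 0.18 in the telencephalon. Of 10 heat shock genes 2 were called higher in hindbrain sorted cells, and 1 higher and 1 lower in telencephalic sorted cells, with medians of -0.03 and -0.11. Hspa1b, an inducible HSP70 gene, was higher at 3.54 ± 0.45 and 2.13 ± 0.61, and its near-identical copy Hspa1a had 1.85 ± 0.46 and 0.15 ± 0.54, a pair whose reads may be split between the copies. Hspb1 had -0.73 ± 0.27 in the hindbrain and was called lower in the telencephalon at -0.92 ± 0.29.

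The genes whose profile over the 8 libraries was most like the mean of the 10 were sought among 9038 other genes with a mean of at least 10 CPM. Zfp36, which encodes a protein that destabilises early response mRNAs, came first with a Pearson r of 0.993, followed by Atl2 at 0.992, Tmem135 at 0.987, A330021E22Rik at 0.983, Tbce at 0.981 and Eif2ak4 at 0.979. The 8 libraries share 4 brains or pools and fall into sorted and whole groups, so these values describe the profile and carry no test. Zfp36 had 208 ± 32 CPM in hindbrain sorted and 22.5 ± 2.8 CPM in hindbrain whole libraries. The other 5 changed less in size, and in the hindbrain Atl2 had a log2 fold change of 0.36 ± 0.11 and Tmem135 0.49 ± 0.11. In the telencephalon Atl2 (0.22 ± 0.11), Tmem135 (0.29 ± 0.11) and A330021E22Rik (0.30 ± 0.10) were not called (edgeR adjusted p = 0.198, 0.0841 and 0.056). Tbce and Eif2ak4 were called higher there. Of these 5 genes only A330021E22Rik was called between regions in sorted cells (0.38 ± 0.10, edgeR adjusted p = 0.0272). Within the 10 genes, r with their own mean was 0.978 for Ier2, 0.972 for Klf4 and 0.965 for Nr4a1. It was lowest for Klf2 at 0.421, Klf6 at 0.704 and Nr4a2 at 0.727. That mean includes the gene itself, which raises these values.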

How the data were processed

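The authors deposited raw counts (integers by symbol) for 8 libraries. Tools in the submitters' processing notes are TopHat2 2.0.4 with Bowtie2 2.0.5, CASAVA 1.8.2, HTSeq and DESeq 1, with build mm9. The sources used here give no annotation, strand setting or HTSeq version. Per the labels' protocols, RNA was pre-amplified (NuGEN Ovation) and made into paired-end libraries that mark no strand and no molecule.

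edgeR 4.0.16 (R 4.3.3) was used for the fit: filterByExpr by group (minimum count 10, minimum total 15), TMM factors, and 1 quasi-likelihood model of 4 group means over 8 libraries. SE is the log2 fold change divided by the square root of F. The fit was tested on simulated data, but the outcome is not reported here and no error rate is drawn from it. Replicates differed by more than sampling noise (chi-square per degree of freedom 5.16 to 61.09), and whether they were separate litters is not stated, so p-values measure only the spread between these libraries. Brain pairs the regions by the series' design, and same-brain deviations correlated at 0.193 (whole) and 0.145 (sorted). Sorted and whole libraries with the same number came from different animals and correlated between -0.0648 and 0.00787. Alternatives were DESeq2 1.42.0, RLE factors, library totals, no filter, Ttr and Rn45s left out, each comparison's libraries alone, blocks for brain or replicate number, and each library left out. The 10 genes and all lists were chosen with earlier results of these data known. Genes outside the 10 were named by rule: up to 4 members of a list called in sorted over whole in at least 1 region, those with the smallest larger value of the 2 regional adjusted p, or the 2 most abundant where none was called, and the 6 most alike over the libraries. Rgs5, Myh11, C1qc and Pecam1 are such markers. Emcn, Egfl7 and Kdr fall outside this rule and were named after their values were seen. The MAP kinase list is not reported here.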

Additional observations from a re-analysis of the deposited data

Results flagged for a closer look

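The rise of Klf6 from whole tissue to sorted cells differed between regions by the test of the difference itself, at 1.89 on the log2 scale (SE 0.22, edgeR adjusted p = 0.00179). Klf6 had 112 and 145 CPM in hindbrain sorted cells against 41.9 and 48.7 CPM in hindbrain whole tissue, and 27.0 and 32.8 CPM in telencephalic sorted cells against 38.1 and 39.6 CPM in telencephalic whole tissue. The mural marker Rgs5, the macrophage marker C1qc and the endothelial marker Cdh5 differed the same way, at 3.28, 2.29 and 1.61. The mural marker Myh11 went the other way, with 0.494 CPM in hindbrain sorted and 4.82 CPM in hindbrain whole libraries. It had 0.885 CPM in telencephalic sorted and 3.80 CPM in telencephalic whole libraries. For this difference 5 of 10 mural, 4 of 11 macrophage and 3 of 12 endothelial markers were called. The endothelial marker Egfl7 went the other way, with 1.72 CPM in hindbrain sorted and 3.10 CPM in telencephalic sorted cells. In whole tissue it had 15.5 CPM in the hindbrain and 15.8 CPM in the telencephalon. The part of these cells in the Klf6 value was not tested. Other early genes were called for this difference too, 4 of 25 tested, all with the higher value in the hindbrain (median 0.785). Among them Zfp36 had 1.54 ± 0.27 (edgeR adjusted p = 0.0116). Of 7 AP-1 genes tested 0 were called, with a median of 0.80. What these genes share with Klf6 was not tested.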

How the results depend on the processing

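The calls of Egr1, Nr4a1, Nr4a2, Ier2 and Dusp1 in sorted cells over whole tissue held in both regions under every alternative run, as did those of Egr2, Klf4 and Klf6 in the hindbrain. Of the members' single values, 364 kept direction and call when 1 library was left out, 12 lost a call, 7 gained one and 17 changed sign; under the other alternatives 353 kept both, 1 lost a call, 12 gained one and 2 changed sign. The number of members called for the difference of rises was 3 with DESeq2, 2 on library totals and 3 without the filter, and 1 to 2 when 1 library was left out. The regional count in sorted cells was then 5 to 9. Over all genes, that difference gave 335 calls with DESeq2, 441 without the filter and 337 with brain as a replicate block, against 211. With the 4 libraries of a comparison alone, 2186 genes were called for sorted over whole in the hindbrain, 1491 for region in sorted cells and 1581 for region in whole tissue, against 3472, 2383 and 909. Leaving out 1 library gave 1722 to 3836 calls for sorted over whole in the hindbrain, 1536 to 4518 in the telencephalon, 1048 to 3218 for region in sorted cells, 322 to 1346 in whole tissue and 58 to 456 for the difference of rises; the lone library left in a group is then assumed to vary like the others. Library totals as the scale moved the median of all genes to -0.19 in the hindbrain and -0.30 in the telencephalon for sorted over whole, and to 0.20 for region in sorted cells, where 83.5% instead of 59.7% of calls were higher. For sorted over whole the share of higher calls was then 20.1% instead of 46.3% in the hindbrain and 10.5% instead of 44.1% in the telencephalon, and for region in whole tissue 70.7% instead of 57.6%.

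No value that changed sign was called before or after. On library totals Dusp1 was at 0.0222 between regions in whole tissue and Nr4a2 at 0.0106 for the difference of rises. When 1 library was left out, the regional difference in whole tissue ran from -0.174 to 0.0772 for Dusp1, -0.29 to 0.18 for Egr1, -0.25 to 0.30 for Klf2, -0.11 to 0.52 for Klf4, -2.86 to 4.29 for Egr3, -0.18 to 0.53 for Nr4a1 and -0.12 to 0.40 for Ier2, and the difference of rises from -2.23 to 4.92 for Egr3, -0.288 to 0.0938 for Nr4a2 and -3.23 to 0.48 for Egr2. The cause was not tested. As a replicate block, brain changed only the Nr4a2 call between regions in sorted cells (-0.53, adjusted p = 0.0294). Replicate number as a block changed that call too (-0.53, adjusted p = 0.0441) and the telencephalic Klf6 call (-0.39, adjusted p = 0.0459). Egr2 and Egr3 are limited by depth, with at most 1 count per telencephalic whole library.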
